A study of Mus musculus with 16 samples.

Results

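Vegfa and 9 genes of the blood vessel endothelium (Kdr, Flt1, Tie1, Tek, Emcn, Pecam1, Cdh5, Cd34 and Eng) were followed through mouse kidneys with tubular loss of Vhl, with acute injury, with both and with neither. They are 10 of the 19938 genes tested, chosen by name with earlier results of these data known. Each was read by the single probe set that the platform annotation gives it. All 16 mice carried a transgene, built on Pax8-rtTA, through which doxycycline deletes Vhl in tubule cells, so the controls were undeleted transgenic mice. VHL-KO/AKI mice (n = 5) received a subcutaneous dose of 0.1 mg doxycycline per 10 g, were killed 4 days later, and also received glycerol. AKI mice (n = 5) received the glycerol without doxycycline: 0.05 ml per 10 g of a 50% solution into a muscle of the left hind limb, which breaks down muscle and injures the kidney, with water withheld from 20 h before to 24 h after. VHL-KO mice (n = 3) received doxycycline alone, and Control mice (n = 3) were untreated. No group received doxycycline without the deletion, or water withdrawal without glycerol. Whole-kidney RNA was measured on arrays, 1 per labelled biological replicate, as log2 levels, so a difference of 1 is a 2-fold difference. Levels of different genes cannot be set against each other on this scale.

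Vegfa is the ligand that keeps capillaries alive and makes them sprout. In the kidney, podocytes and tubule cells make it, and the endothelium beside them answers through the receptors encoded by Kdr (VEGFR2, the main signalling receptor) and Flt1 (VEGFR1, which binds the ligand tightly and, as a soluble form, holds it away from Kdr). Tek (TIE2) is the receptor for the angiopoietins, which steady the vessel wall, and Tie1 is its partner without a ligand of high affinity. Eng (endoglin) is a coreceptor for BMP9 and BMP10. Cdh5 (VE-cadherin) forms the junctions between endothelial cells, Pecam1 lies at the same borders and also on platelets and leukocytes, Emcn (endomucin) is a sialomucin of capillary and venous endothelium, and Cd34 is a sialomucin shared by endothelium and blood progenitors. The von Hippel-Lindau protein, product of Vhl, marks hypoxia-inducible factors (HIF) for breakdown, and Vegfa is a textbook HIF target. Vhl was deleted in the epithelium, whereas 9 of the 10 genes mark another cell type, so the comparison follows the ligand and its responding cells together.

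The promoters of the ligand, its receptors and Tie1 are shown as examples. All 10 genes were higher in every VHL-KO array than in any Control array, as were 11.8% of all genes, so this does not single out the genes shown. The windows below are RefSeq's, on GRCm38.p6, and give the 250 bases before a listed start, on the gene's own strand. Capitals mark the cores of the HIF response element, ACGTG and GCGTG, and the GC box GGGCGG to which SP1 binds, each searched on both strands.
Vegfa, chr17:46032378-46032627, minus strand: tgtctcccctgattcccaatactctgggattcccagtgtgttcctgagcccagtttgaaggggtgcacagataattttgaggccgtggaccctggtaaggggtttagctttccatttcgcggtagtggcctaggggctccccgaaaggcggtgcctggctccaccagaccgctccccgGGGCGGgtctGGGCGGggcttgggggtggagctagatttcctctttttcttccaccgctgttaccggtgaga
Kdr, chr5:75978456-75978705, minus strand: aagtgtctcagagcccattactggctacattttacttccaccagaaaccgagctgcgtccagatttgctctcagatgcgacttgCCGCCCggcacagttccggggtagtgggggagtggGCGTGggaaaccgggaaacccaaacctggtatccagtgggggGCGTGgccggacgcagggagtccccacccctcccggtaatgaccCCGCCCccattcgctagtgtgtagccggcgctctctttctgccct
Flt1, chr5:147726012-147726261, minus strand: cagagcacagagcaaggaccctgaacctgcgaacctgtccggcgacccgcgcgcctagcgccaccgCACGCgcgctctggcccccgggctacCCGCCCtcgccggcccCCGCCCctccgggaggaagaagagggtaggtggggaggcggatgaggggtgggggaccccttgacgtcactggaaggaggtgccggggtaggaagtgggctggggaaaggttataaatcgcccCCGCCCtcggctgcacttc
Tie1, chr4:118489850-118490099, minus strand: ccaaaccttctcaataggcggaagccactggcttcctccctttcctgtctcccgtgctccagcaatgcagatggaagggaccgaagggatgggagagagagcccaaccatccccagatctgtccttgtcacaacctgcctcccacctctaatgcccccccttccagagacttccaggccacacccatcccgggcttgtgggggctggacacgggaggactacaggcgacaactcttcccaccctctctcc
RefSeq windows were matched for 8 of the 10 genes; Pecam1 and Cdh5 are named only. The Vegfa window shown held 2 GC boxes and neither HIF core, while its other listed window, at chr17:46025164-46025413 on the minus strand, held 1 ACGTG, 1 GCGTG and 1 GC box. Kdr held 2 GCGTG and 2 GC boxes, and Flt1 held 1 GCGTG and 3 GC boxes. Emcn held 1 GCGTG, and the windows of Tie1, Tek, Cd34 and Eng held none of the 3 motifs. Over all 32851 promoter windows, 16.6% held ACGTG, 28.2% held GCGTG, 38.6% held either and 32.7% held GGGCGG. Cores this short match often, and 4 of the 8 genes held one in some window. A match here is a description of the letters and not a binding site.

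Vhl itself was lower in each of the 8 knockout arrays than in any of the 8 others. It averaged 6.50 ± 0.12 in VHL-KO/AKI and 7.16 ± 0.12 in AKI kidneys (SD, n = 5 each), a log2 difference of -0.67 (limma adjusted p = 9.98e-05). In uninjured kidneys it averaged 6.65 ± 0.04 in VHL-KO and 7.06 ± 0.04 in Control mice (SD, n = 3 each), and the difference of -0.40 did not pass the threshold of 0.05 (limma adjusted p = 0.0565, or 0.0274 without the array AKI 4). AKI 4 stood apart from its group, with a mean correlation of 0.973 with the other AKI arrays, whereas theirs ran from 0.988 to 0.989. Its mean over 18 HIF targets was 8.68, inside the range of VHL-KO/AKI kidneys (8.64 to 8.79) and above the other AKI arrays (7.73 to 7.95), yet its Vhl level was 7.01, above every knockout array. Its mean over 10 tubule genes was 11.86, against 10.45 to 10.92 in the other AKI arrays. That over 6 tubule injury genes, Havcr1 among them, was 9.48, against 10.8 to 11.11 in the others. The tests were also run without AKI 4, and values from that fit are given beside several results. The sex-linked transcripts divided the arrays where injury did. Xist lay between 4.16 and 5.08 in the 10 injured arrays and between 10.23 and 11.47 in the 6 uninjured ones, and Control 3 also carried Y-linked signal, with a mean of 7.43 over 3 genes. Injury and this difference therefore cannot be told apart in any comparison of injured with uninjured kidneys, the interaction included. AKI and VHL-KO/AKI kidneys lay on the same side of it.

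Vegfa was highest after loss of Vhl alone. Its levels were 9.90, 9.74, 9.77, 9.76 and 9.87 in VHL-KO/AKI kidneys, 8.97, 8.87, 9.34, 10.21 and 9.34 in AKI kidneys, 10.51, 9.96 and 10.59 in VHL-KO kidneys and 9.81, 9.42 and 9.60 in Control kidneys. The group means ran from 10.35 in VHL-KO through 9.81 in VHL-KO/AKI and 9.61 in Control to 9.35 in AKI kidneys. VHL-KO did not overlap VHL-KO/AKI, and each later neighbour in that order overlapped the next. The VHL-KO/AKI arrays were the tightest, with an SD of 0.07, and the AKI arrays the widest, with an SD of 0.53, because AKI 4 lay above all 5 VHL-KO/AKI arrays while the other 4 lay below them.

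The receptors for Vegfa did not move alike. Kdr, which carries the growth signal, had 8.68, 8.44, 8.55, 8.31 and 8.24 in VHL-KO/AKI kidneys, 8.29, 7.78, 8.33, 8.16 and 8.0 in AKI kidneys, 9.31, 9.48 and 9.48 in VHL-KO kidneys and 8.92, 8.95 and 8.92 in Control kidneys. All 10 injured kidneys lay below all 6 uninjured ones, and within each state the knockout mean was the higher, with an overlap only between the injured groups. Flt1, which can withhold the ligand, had 9.54, 9.49, 9.38, 9.75 and 9.85 in VHL-KO/AKI kidneys, 9.88, 9.53, 10.02, 9.47 and 9.37 in AKI kidneys, 9.55, 9.56 and 9.91 in VHL-KO kidneys and 9.07, 9.10 and 8.98 in Control kidneys. The 3 Control arrays lay below the other 13 arrays, and those 3 other groups overlapped, with means from 9.60 to 9.67.

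Among the Tie receptors, Tie1 had 7.41, 7.15, 7.35, 7.18 and 7.27 in VHL-KO/AKI kidneys, 7.33, 6.78, 6.96, 7.30 and 6.78 in AKI kidneys, 8.03, 7.95 and 8.29 in VHL-KO kidneys and 7.52, 7.38 and 7.44 in Control kidneys. VHL-KO stood clear above the rest and AKI clear below Control. Tek had 9.52, 9.20, 9.38, 9.12 and 8.45 in VHL-KO/AKI kidneys, 9.22, 8.89, 8.47, 7.52 and 8.57 in AKI kidneys, 9.82, 9.56 and 9.79 in VHL-KO kidneys and 9.27, 9.37 and 9.18 in Control kidneys. Its VHL-KO arrays were all higher than any other, and its spread was the widest of the 10 genes in both injured groups, with SDs of 0.41 and 0.64. Eng had its lowest value in AKI 4 as well, at 9.60, while the other AKI arrays ran from 10.04 to 10.33, VHL-KO/AKI from 10.10 to 10.52, VHL-KO from 10.68 to 10.70 and Control from 10.34 to 10.56.

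Of the surface and junction genes, Cd34 separated the groups most clearly. It had 9.72, 9.55, 9.60, 9.48 and 9.03 in VHL-KO/AKI kidneys, 9.02, 8.99, 8.81, 8.80 and 8.99 in AKI kidneys, 10.55, 10.15 and 10.26 in VHL-KO kidneys and 9.64, 9.56 and 9.55 in Control kidneys. The means ran from 10.32 in VHL-KO through 9.59 in Control and 9.48 in VHL-KO/AKI to 8.92 in AKI kidneys, and Control against VHL-KO/AKI was the only overlapping pair of neighbours. Cdh5 had 9.46, 9.48, 9.39, 9.65 and 9.83 in VHL-KO/AKI kidneys, 9.50, 9.29, 10.16, 10.30 and 9.60 in AKI kidneys, 9.94, 9.86 and 10.03 in VHL-KO kidneys and 9.43, 9.21 and 9.25 in Control kidneys. Its AKI arrays overlapped all other groups, and AKI 3 and AKI 4 were the highest of the 16. Emcn ran from 11.71 to 11.94 in VHL-KO/AKI, from 11.60 to 11.84 in AKI, from 12.02 to 12.48 in VHL-KO and from 11.70 to 11.82 in Control kidneys. Pecam1 ran from 9.03 to 9.37 in VHL-KO/AKI, from 8.82 to 9.18 in AKI, from 9.35 to 9.75 in VHL-KO and from 8.88 to 9.26 in Control kidneys. For Emcn the VHL-KO arrays lay above all others, for Pecam1 they overlapped those of VHL-KO/AKI, and the other 3 groups overlapped each other for both genes.

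**Figure D1:**
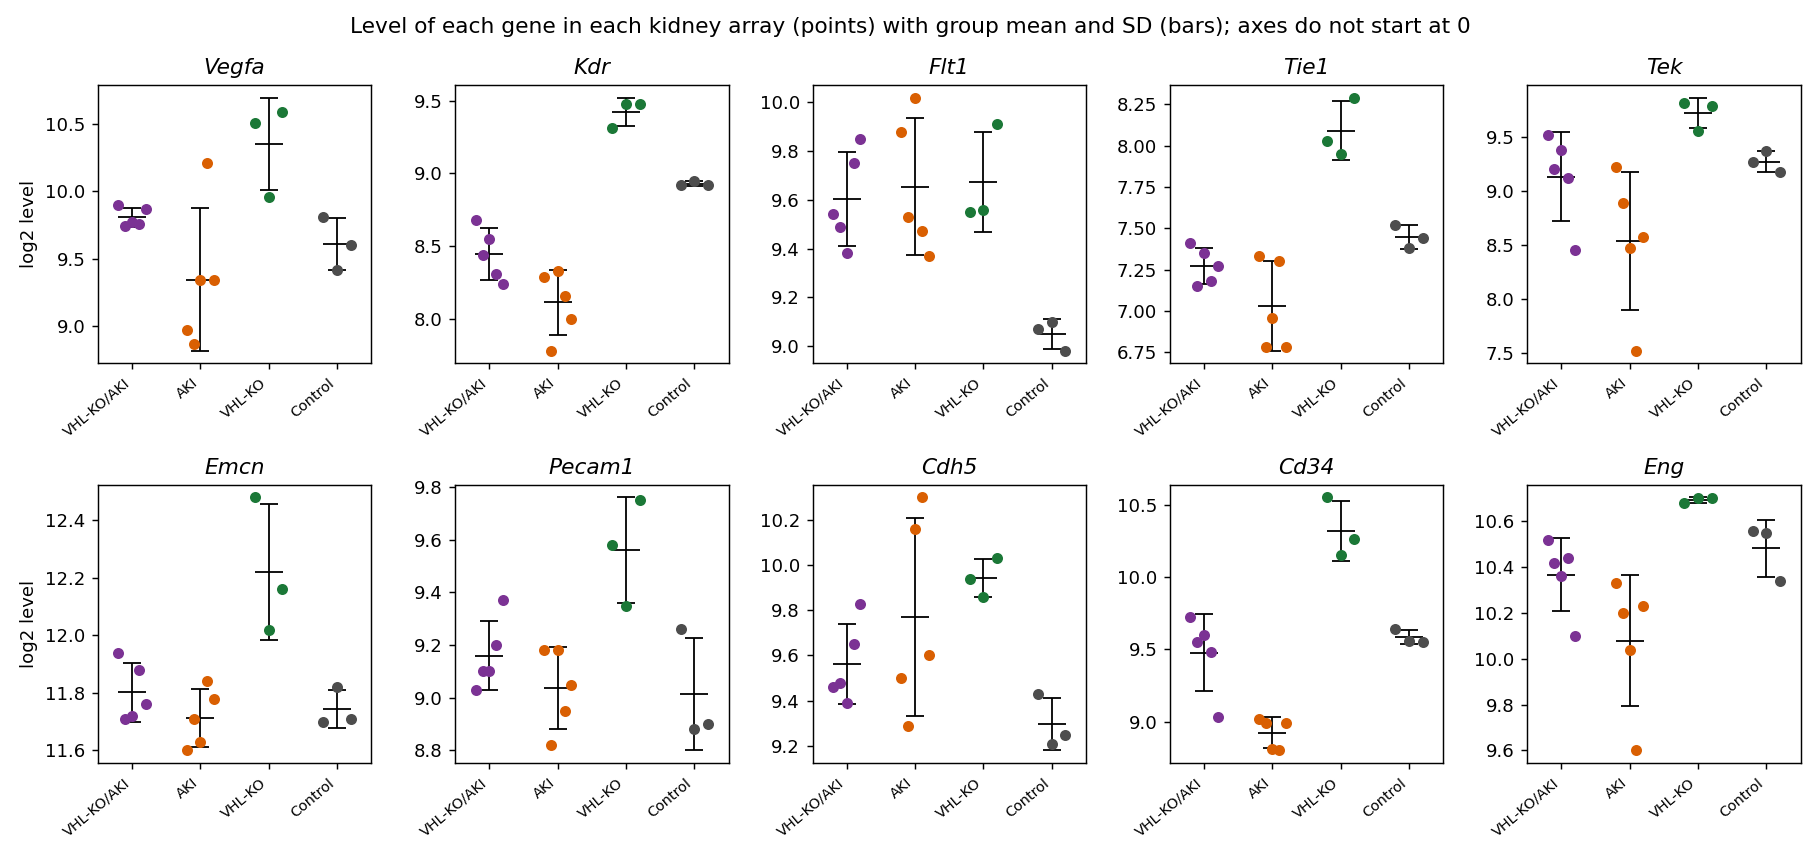
Log2 level of each of the 10 genes in every array (points) with the group mean and SD (bars), in 1 panel per gene with its own axis, which does not start at 0, for VHL-KO/AKI (n = 5), AKI (n = 5), VHL-KO (n = 3) and Control (n = 3). VHL-KO arrays sit above Control arrays in all 10 panels, AKI arrays sit below Control arrays for Kdr, Tie1, Cd34 and Eng, and Flt1 is lowest in Control.

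The first comparison asked whether loss of Vhl in the tubule changes vessel genes in the uninjured kidney. All 10 genes were higher in every VHL-KO array than in any Control array, by 0.21 (Eng) to 0.74 (Vegfa), with a median of 0.58 while the median of all genes was 0.02. Groups separated in that direction for 11.8% of all genes, and in the other for 5.33%. Only Cd34 passed the test, with a difference of 0.73 (SE 0.144, 1.66-fold, limma adjusted p = 0.0337), beside 0.476% of all genes called higher and 0.0502% called lower. The call on Cd34 is fragile. It was lost when any 1 of Control 1, Control 2, Control 3, VHL-KO 1, VHL-KO 3, VHL-KO/AKI 2 and VHL-KO/AKI 4 was left out, with adjusted p from 0.0535 to 0.172, while the difference stayed between 0.62 and 0.76.

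Vegfa was 1.68-fold higher in VHL-KO kidneys (difference 0.74, 95% interval 0.19 to 1.30), which did not pass (limma adjusted p = 0.36). AKI 4 enters this comparison only through the shared estimate of spread. Without it the same difference had a limma adjusted p of 0.0382. There 4 of the 10 genes were called higher (Vegfa, Tie1, Emcn and Cd34), beside 0.968% of all genes called higher and 0.211% lower. Among the receptors the differences were 0.49 for Kdr (adjusted p = 0.165), 0.62 for Flt1 (0.15), 0.64 for Tie1 (0.0721) and 0.45 for Tek (0.81). Cdh5, Emcn and Pecam1 differed by 0.65 (adjusted p = 0.289), 0.48 (0.0674) and 0.55 (0.104). Before adjustment, 8 of the 10 p-values were under 0.05, as were those of 1664 of the 19938 genes.

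**Figure D2:**
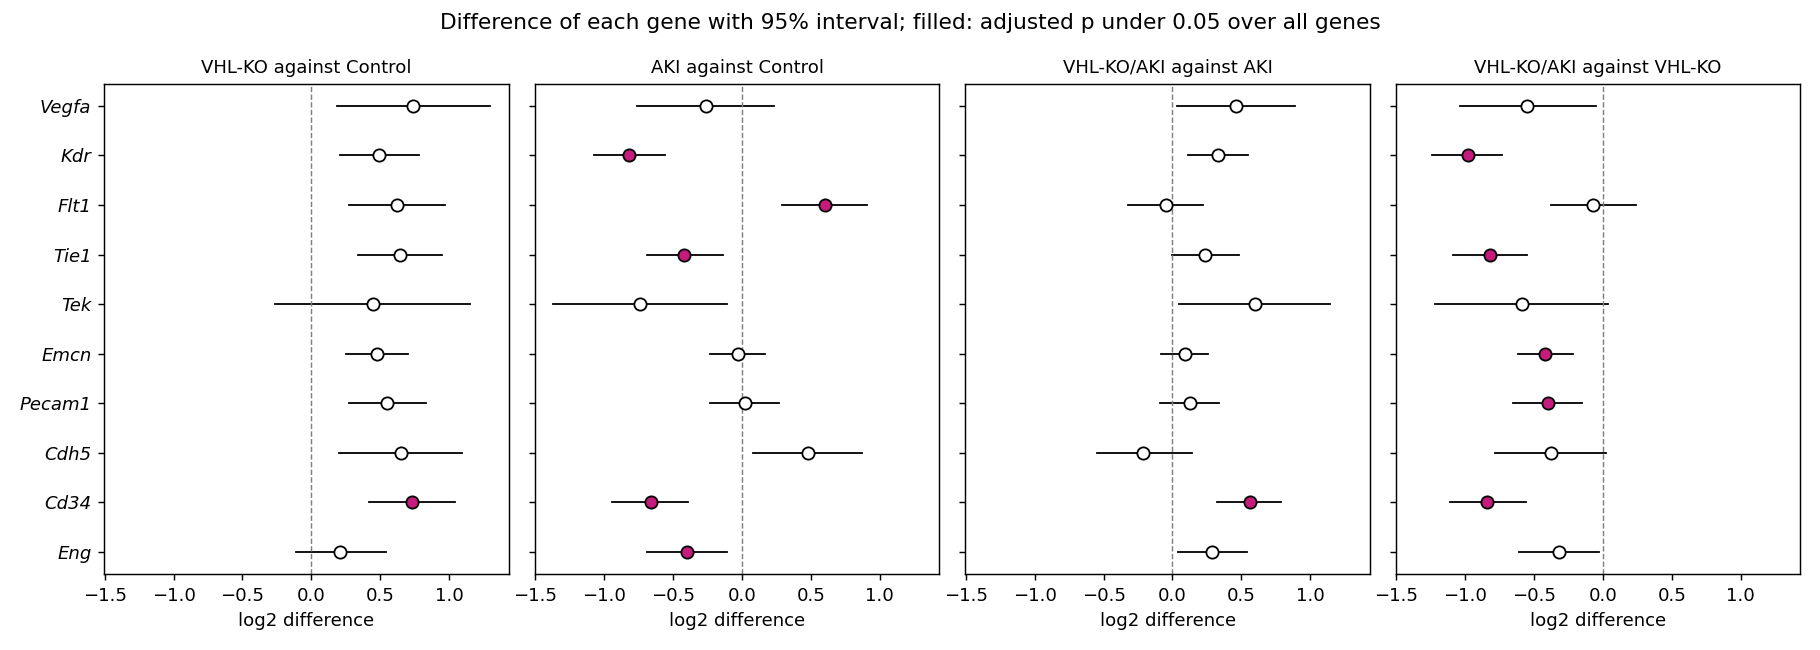
Log2 difference of each gene (point) with its 95% interval from limma (line) in the 4 comparisons; filled points have an adjusted p under 0.05. In VHL-KO against Control all 10 points lie above 0 and Cd34 is called, and all 10 lie below 0, with 5 called, in VHL-KO/AKI against VHL-KO.

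Other genes of the endothelium leaned the same way in VHL-KO kidneys, in lists also chosen with earlier results of these data known. Of 26 further surface and junction genes, 24 had a positive difference (median 0.45). Where 0.476% of all genes were called higher, 4 of the 26 rose. They were Cd93, a receptor of endothelium and myeloid cells (1.38, limma adjusted p = 0.0148), Gpihbp1, which carries lipoprotein lipase to the capillary lumen (1.01, adjusted p = 0.00349), Robo4, a guidance receptor of vessels (0.55, adjusted p = 0.0252), and Efnb2, an ephrin of arterial endothelium (0.33, adjusted p = 0.0298). Of 14 genes of the VEGF response and of tip cells, the leading cells of a sprout, 2 rose: Kcne3, a potassium channel subunit used as a tip cell marker (0.95, adjusted p = 0.00608), and Esm1, a secreted proteoglycan that VEGF induces (0.80, adjusted p = 0.00791). None of 15 endothelial transcription factors passed (median 0.36, 14 positive), led by Sox7 at 0.39 (adjusted p = 0.117) and Erg at 0.36 (adjusted p = 0.223). Likewise none passed of 8 other VEGF ligands and coreceptors (median 0.20), 8 angiopoietin and Tie genes (0.04), 18 BMP, TGF-beta and endoglin signalling genes (0.12), 12 Notch genes (0.19) or 8 secreted inhibitors of vessel growth (0.18). Nearest to the threshold in these lists were Sema3f at 0.79 (limma adjusted p = 0.0507), Vegfc at 0.38 (0.0848) and Flt4 at 0.69 (0.0979). Without AKI 4, 7 of the 26 surface and junction genes, 2 of the 15 transcription factors and 3 of the 8 other VEGF ligands and coreceptors were called higher, where 0.968% of all genes were.

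Where 0.476% of all genes were called higher, 9 of 18 HIF targets beside Vegfa rose, with a median of 0.80. They were led by Adm, which encodes the vasodilator adrenomedullin (2.31, limma adjusted p = 0.00031), and Egln3, a HIF prolyl hydroxylase (2.11, adjusted p = 0.0139). The mean over the 26 endothelial genes was 7.80 to 8.10 in VHL-KO and 7.45 to 7.50 in Control kidneys. In a whole-kidney extract more endothelial cells and more RNA per endothelial cell cannot be told apart. Among other cell types, the mean over 7 platelet genes was 5.72 to 6.05 in VHL-KO and 5.38 to 5.53 in Control kidneys. Of these 7 genes, 5 had a positive difference (median 0.31). The 1 called was Ppbp (2.22, limma adjusted p = 0.0148), a platelet chemokine named after its value was seen. Ppbp is part of that mean, with 8.72 in VHL-KO and 6.49 in Control kidneys, and a mean without it was not taken. The platelet gene Gp5 averaged 5.02 in VHL-KO and 5.12 in Control kidneys. The mean over 11 pericyte and mesangial genes was 7.96 to 7.98 in VHL-KO and 7.78 to 7.90 in Control kidneys. That over 5 lymphatic endothelial genes was 6.41 to 6.49 in VHL-KO and 6.22 to 6.37 in Control kidneys, with 3 of 5 differences positive. Within that list Flt4 differed by 0.69 (limma adjusted p = 0.0979), while Prox1 averaged 5.95 in VHL-KO and 6.34 in Control kidneys. The mean over 10 tubule genes was lower in VHL-KO, 12.06 to 12.12, than in Control kidneys, 12.18 to 12.41, with 8 of 10 differences negative. The groups overlapped for 9 podocyte genes (7.67 to 7.79 in VHL-KO, 7.47 to 7.74 in Control) and 11 leukocyte genes (5.94 to 6.38 in VHL-KO, 5.82 to 6.21 in Control). The part of these levels in the values of the 10 genes was not tested, among them Pecam1 and Cd34, which platelets, leukocytes or blood progenitors also carry.

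The second comparison asked what glycerol injury does to the same genes where Vhl is intact. Kdr fell most, by 0.82 on the log2 scale in AKI kidneys (SE 0.12, limma adjusted p = 0.000201), which leaves 0.567 of the Control level. Cd34 fell by 0.66 (SE 0.128, adjusted p = 0.00144), Tie1 fell by 0.42 (adjusted p = 0.0241) and Eng fell by 0.40 (adjusted p = 0.0386). Flt1 rose, by 0.60 (SE 0.147, 1.52-fold, adjusted p = 0.00649), so Kdr and Flt1 transcripts went opposite ways in the same kidneys. Flt1 was read as a single level, which does not tell its soluble form from the membrane form. These 5 of 10 stand beside 28.1% of all genes called, of which 13.2% were higher and 14.9% lower.

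Vegfa differed by -0.26 in AKI kidneys and did not pass (limma adjusted p = 0.448). Without AKI 4 it was lower by 0.48 (difference -0.48, adjusted p = 0.0222). Tek differed by -0.74 (adjusted p = 0.0753), or -0.49 without AKI 4 (adjusted p = 0.0963) and -0.91 without AKI 1 (adjusted p = 0.0263). Cdh5 differed by 0.48 (adjusted p = 0.0719), or 0.34 without AKI 4 and 0.59 without AKI 2 (adjusted p = 0.116 and 0.0187). Emcn and Pecam1 stayed within 0.03 of Control, with 95% intervals from -0.23 to 0.17 and from -0.23 to 0.27. The calls on Tie1 and Eng were the less firm. Tie1 was lost without Control 1, Control 3, AKI 2 or AKI 5 (adjusted p from 0.0527 to 0.0922), and Eng without Control 1, Control 2 or AKI 3 (adjusted p from 0.0677 to 0.13). Without AKI 4, which held its lowest value, Eng differed by -0.28 (limma adjusted p = 0.0334).

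The genes around the receptors divided in AKI kidneys too, where 13.2% of all genes were called higher and 14.9% lower. In the angiopoietin and Tie list 4 of 8 fell and none rose: Angpt1, the angiopoietin that activates Tek (-1.24, limma adjusted p = 2.02e-05), Angpt2, which can oppose it (-0.55, adjusted p = 0.0472), Svep1, an extracellular matrix protein (-0.42, adjusted p = 0.0157), and Ptprb, the phosphatase that acts on Tek (-0.36, adjusted p = 0.0492). Without AKI 4 the call on Angpt2 was lost (-0.52, adjusted p = 0.0654). Of the 8 other VEGF ligands and coreceptors 2 fell, Vegfb, a ligand of Flt1 (-0.84, adjusted p = 0.00378), and Nrp1, a coreceptor of Kdr (-0.57, adjusted p = 0.0377). The difference in Nrp1 was -0.37 without AKI 4 (adjusted p = 0.00473), and there Nrp2 also passed (-0.33, adjusted p = 0.00332). Of 8 secreted inhibitors of vessel growth 4 rose, namely Adamts1, a protease that binds VEGF (1.90, adjusted p = 2.08e-05), the thrombospondin gene Thbs1 (1.00, adjusted p = 0.0112), the semaphorin gene Sema3f (0.98, adjusted p = 0.000273) and Col18a1, the source of endostatin (0.48, adjusted p = 0.00517).

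Of the 26 further endothelial genes 8 rose and 4 fell in AKI kidneys (median 0.05). The largest rises were in Thbd, the thrombin receptor thrombomodulin (1.61, limma adjusted p = 0.000213), S1pr1, a receptor for sphingosine 1-phosphate (1.17, adjusted p = 0.00136), and Procr, the protein C receptor (1.15, adjusted p = 0.00585). Ehd3, which marks glomerular endothelium, had the largest fall (-1.10, adjusted p = 0.000554). Of the 14 VEGF response and tip cell genes 7 rose and 1 fell, led by Plaur, the urokinase receptor (3.25, adjusted p = 2.5e-05), the nuclear receptor gene Nr4a1 (1.92, adjusted p = 0.00192) and Rcan1, an inhibitor of calcineurin (1.24, adjusted p = 0.000104). Epithelium and leukocytes also express these 3. In whole-kidney RNA no cell type can be assigned to them or to the other genes of these lists. Among 15 endothelial transcription factors Ets2 (1.06, adjusted p = 0.000354) and Klf4 (0.89, adjusted p = 0.000525) rose, and Epas1, which encodes HIF-2alpha, and Mef2c fell (-0.43 and -0.36, adjusted p = 0.025 and 0.0354). These counts of 26, 14 and 15 genes stand beside 13.2% of all genes called higher and 14.9% called lower. Without AKI 4, 4 of the 15 were called higher and 3 lower, beside 17.2% and 17% of all genes.

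In signalling next to Eng, of 18 BMP, TGF-beta and endoglin signalling genes 5 rose and 1 fell in AKI kidneys, among them the receptor gene Tgfbr1 (1.13, limma adjusted p = 0.000582), Smad1, a transducer of BMP signals (0.84, adjusted p = 0.00107), and the ligand gene Tgfb2, the one that fell (-0.69, adjusted p = 0.000652). Of 12 Notch genes Notch4, the endothelial Notch receptor, rose (0.39, adjusted p = 0.0244) and its target Hey2 fell (-0.54, adjusted p = 0.000665). That is 1 of 12 in each direction, beside 13.2% of all genes higher and 14.9% lower. Without AKI 4 it was 2 higher and 1 lower, beside 17.2% and 17% of all genes. Of 5 leukocyte adhesion genes Icam1 rose (0.51, adjusted p = 0.0309). The regulators of Vegfa transcripts moved in both directions, 5 of 12 higher and 3 lower, with Stat3, which can activate the gene (1.42, adjusted p = 1.55e-05), and Zfp36, which destabilises its messenger (1.36, adjusted p = 0.00411), higher, and Ppargc1a, a coactivator (-1.33, adjusted p = 0.000385), lower. The summed picture of cell types moved with injury: the mean over 10 tubule genes was 10.45 to 11.86 in AKI and 12.18 to 12.41 in Control kidneys, and that over 9 podocyte genes was 7.28 to 7.46 in AKI and 7.47 to 7.74 in Control kidneys. The mean over 11 pericyte and mesangial genes was 7.64 to 7.75 in AKI and 7.78 to 7.90 in Control kidneys. That over 11 leukocyte genes was 6.08 to 6.6 in AKI and 5.82 to 6.21 in Control kidneys, with 4 called higher and 1 lower. The part of these levels in the endothelial values, that of leukocytes in Pecam1 included, was not tested.

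The third comparison asked whether loss of Vhl changes these genes within injured kidneys. Cd34 rose, by 0.56 in VHL-KO/AKI over AKI kidneys (SE 0.111, 1.47-fold, limma adjusted p = 0.0156), with all 5 VHL-KO/AKI arrays above all 5 AKI arrays, a separation found in 2.19% of all genes, and in 1.58% in the other direction. The nearest arrays were VHL-KO/AKI 5 at 9.03 and AKI 1 at 9.02. Without VHL-KO/AKI 1 the difference was 0.49 (adjusted p = 0.051). It was the 1 member called, beside 3.88% of all genes called, 2.48% higher and 1.4% lower. Vegfa differed by 0.46 (adjusted p = 0.231), but by 0.68 and past the threshold without AKI 4 (adjusted p = 0.00533). Kdr differed by 0.33 (adjusted p = 0.0915), Tek by 0.60 (0.219), Eng by 0.29 (0.195) and Tie1 by 0.24 (0.261), and these 4 overlapped between the groups. Without AKI 4 the difference was 0.34 for Tek (adjusted p = 0.278) and 0.17 for Eng (adjusted p = 0.228). Kdr passed without VHL-KO/AKI 5 (0.38, adjusted p = 0.0419).

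Flt1 and Cdh5 were the members with a negative difference in VHL-KO/AKI against AKI kidneys, at -0.05 and -0.21 with 95% intervals from -0.32 to 0.22 and from -0.55 to 0.14. That of Cdh5 was -0.07 without AKI 4 (adjusted p = 0.82). Emcn differed by 0.09 (-0.08 to 0.26) and Pecam1 by 0.13 (-0.09 to 0.34). The median over the 10 genes was 0.26, and that over all genes was -0.01. Of the 26 further endothelial genes Ehd3 (0.64, limma adjusted p = 0.0402) and Gpihbp1 (0.49, adjusted p = 0.0264) rose and none fell, and the median was 0.03; without AKI 4, Procr fell as well (-0.54, adjusted p = 0.0472). Angpt1 rose by 0.44 (adjusted p = 0.0461), the 1 of 8 angiopoietin and Tie genes called, beside 2.48% of all genes called higher and 1.4% lower. It averaged 5.59 ± 0.28 in VHL-KO/AKI and 5.15 ± 0.18 in AKI kidneys (SD, n = 5 each), while Control kidneys averaged 6.39 ± 0.04 (SD, n = 3).

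Several genes that were higher in AKI than in Control kidneys were lower with the knockout. In VHL-KO/AKI against AKI kidneys Plaur fell by 1.22 (limma adjusted p = 0.0418), Rcan1 fell by 0.78 (adjusted p = 0.00944), Adamts1 fell by 0.68 (adjusted p = 0.0463) and Stat3 fell by 0.48 (adjusted p = 0.0474). Both comparisons use the same AKI arrays. Id1 and Id3, targets of BMP signalling, fell by 0.39 (adjusted p = 0.0296) and by 0.63 (adjusted p = 0.0486), and Hey2 rose by 0.31 (adjusted p = 0.049). Hif1a, which encodes HIF-1alpha, fell by 0.44 (adjusted p = 0.0167). Of the 18 HIF targets 10 rose and none fell (median 0.54), among them Car9, a carbonic anhydrase (2.70, adjusted p = 0.000216), and Egln3 (2.67, adjusted p = 9.99e-05). Over all genes 2.48% were called higher and 1.4% lower. The mean over tubule genes was 10.81 to 11.59 in VHL-KO/AKI and 10.45 to 11.86 in AKI kidneys, and that over the 26 endothelial genes was 7.56 to 7.73 in VHL-KO/AKI and 7.58 to 7.70 in AKI kidneys. Among the 5 VHL-KO/AKI arrays, Kdr, Tek and Cd34 stood in the same order as the tubule mean. They ran from 8.24, 8.45 and 9.03 in VHL-KO/AKI 5 (tubule mean 10.81) to 8.68, 9.52 and 9.72 in VHL-KO/AKI 1 (11.59). Pecam1 ran the other way, from 9.37 to 9.03 in the same arrays. Cdh5 and Flt1 were highest in VHL-KO/AKI 5 (9.83 and 9.85), and the remaining members followed neither order. The 5 AKI arrays showed no such order for Kdr, Tek and Cd34. Of the 10 tubule genes none passed between VHL-KO/AKI and AKI kidneys, but 6 were called higher without AKI 4, where 7.23% of all genes were. What part the tubule level has in these values was not tested.

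**Figure D3:**
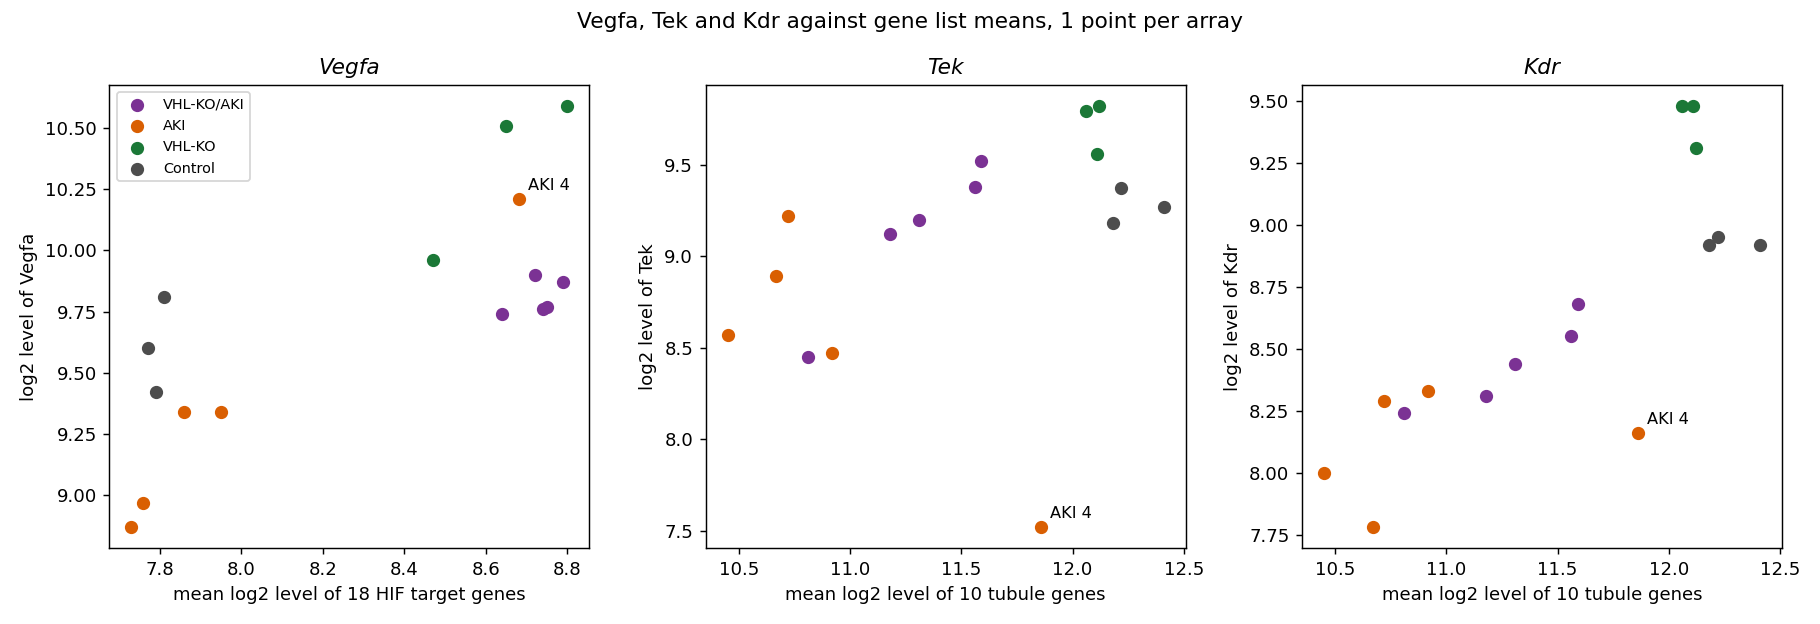
Log2 level of Vegfa against the mean log2 level of 18 HIF targets, and of Tek and Kdr against the mean log2 level of 10 tubule genes, with 1 point per array in the colour of its group. AKI 4 (labelled) lies with the knockout arrays for Vegfa (10.21) and the HIF mean (8.68), and lies below them for Tek (7.52) at a tubule mean of 11.86.

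The fourth comparison set injured against uninjured kidneys, both without tubular Vhl. All 10 genes were lower in VHL-KO/AKI than in VHL-KO kidneys, 8 of them without overlap between the groups, where 14.9% of all genes separated in that direction. The VHL-KO arrays are the same as in VHL-KO against Control, so the results of these comparisons are not independent. Kdr fell by 0.98 (SE 0.12, limma adjusted p = 0.000148), to 0.506 of the VHL-KO level. Cd34 fell by 0.84 (adjusted p = 0.000768), Tie1 fell by 0.82 (adjusted p = 0.000894), Emcn fell by 0.42 (adjusted p = 0.00845) and Pecam1 fell by 0.40 (adjusted p = 0.0343). These 5 of 10 stand beside 8.91% of all genes called lower and 4.66% called higher. The call on Emcn was lost without VHL-KO 1 (adjusted p = 0.0516). That on Pecam1 was lost without VHL-KO 1, VHL-KO 3 or any 1 of VHL-KO/AKI 1 to 4 (adjusted p from 0.0562 to 0.179), and also with all 35556 rows tested (0.0532) or with arrays centred on their medians (0.0616).

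Vegfa differed by -0.55 in VHL-KO/AKI against VHL-KO kidneys (limma adjusted p = 0.14), and passed without AKI 4 (adjusted p = 0.0147), as did Eng, which differed by -0.32 (adjusted p = 0.134 and 0.0206). Tek differed by -0.59 (adjusted p = 0.215) and Cdh5 by -0.38 (adjusted p = 0.206). For Flt1 the difference was -0.07, with a 95% interval from -0.38 to 0.24. Of the 26 further endothelial genes 8 fell and none rose, led by Aplnr, the apelin receptor (-1.69, adjusted p = 5.72e-05), Ehd3 (-1.22, adjusted p = 0.000744) and Efnb2 (-0.57, adjusted p = 3.56e-05). Over all genes 8.91% were called lower and 4.66% higher. Of the 14 VEGF response and tip cell genes 2 rose and 5 fell (median 0.08). Plaur rose (1.56, adjusted p = 0.00987), and Apln, the apelin ligand (-1.06, adjusted p = 0.0148), Esm1 (-0.82, adjusted p = 0.000311) and Angpt2 (-0.75, adjusted p = 0.0194) fell. Of the 8 other VEGF ligands and coreceptors 3 fell, led by Nrp2 (-0.76, adjusted p = 0.000669). Of 15 endothelial transcription factors 5 fell and none rose, among them Gata2 (-0.63, adjusted p = 0.00372) and Erg (-0.48, adjusted p = 0.00351). Of 8 angiopoietin and Tie genes 3 fell, namely Angpt2, Angpt1 (-0.50, adjusted p = 0.0222) and Ptprb (-0.41, adjusted p = 0.0477). Beside these, the mean over 10 tubule genes was 10.81 to 11.59 in VHL-KO/AKI and 12.06 to 12.12 in VHL-KO kidneys, with 6 called lower. That over 9 podocyte genes was 7.32 to 7.41 in VHL-KO/AKI and 7.67 to 7.79 in VHL-KO kidneys, also with 6 lower, and that over 11 pericyte and mesangial genes was 7.67 to 7.81 in VHL-KO/AKI and 7.96 to 7.98 in VHL-KO kidneys, with 2 lower. The part of these levels in the endothelial values was not tested.

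**Figure D4:**
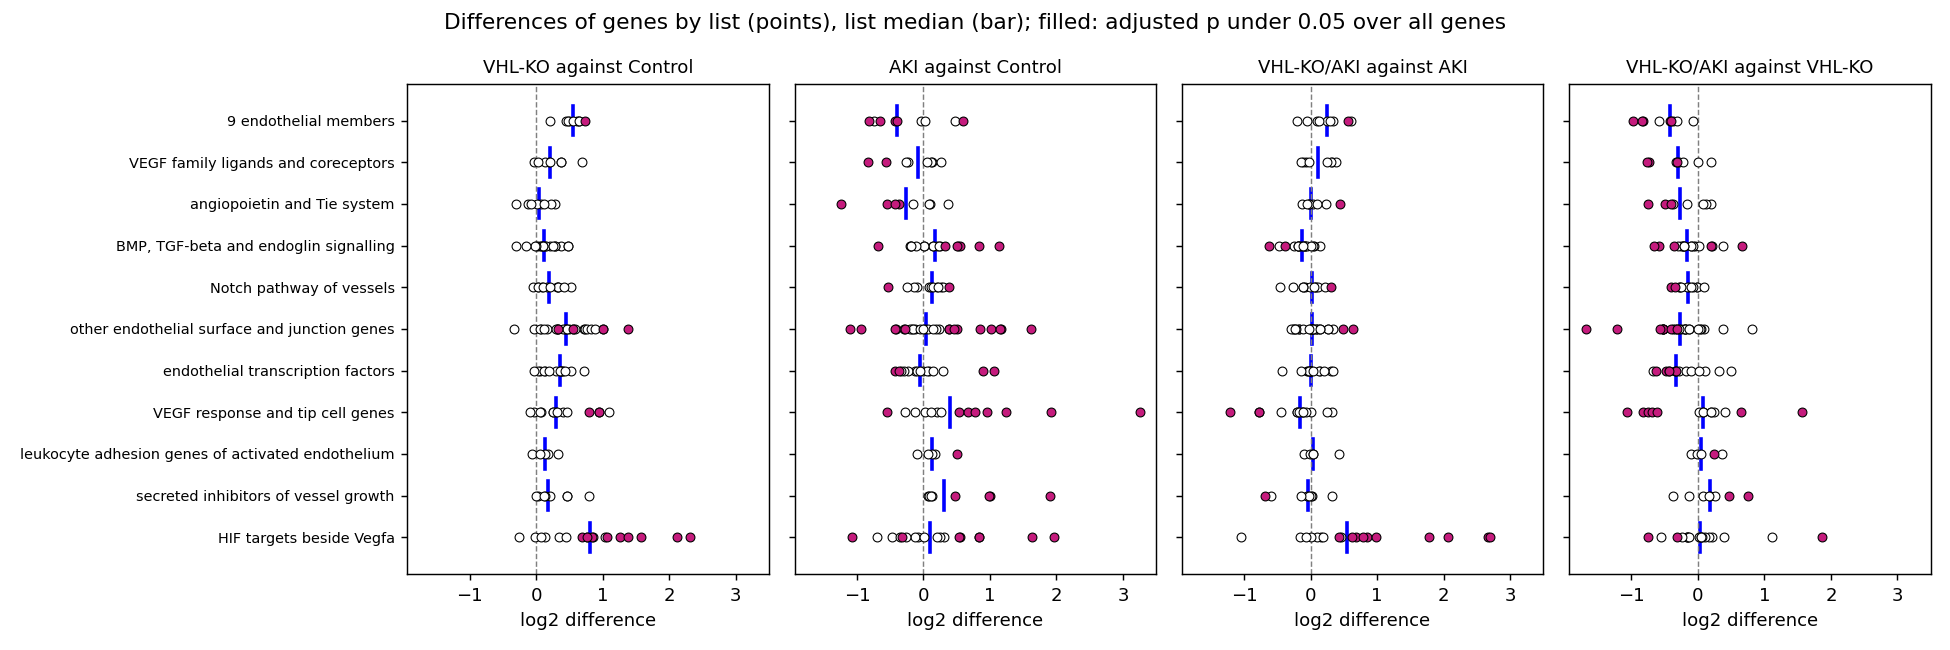
Log2 difference of each gene (points, filled where the adjusted p is under 0.05) and the list median (bar) for the 9 endothelial members and 10 lists of related genes, in the 4 comparisons. The bar of the other endothelial genes lies at 0.45 in VHL-KO against Control and at -0.27 in VHL-KO/AKI against VHL-KO, and that of the HIF targets at 0.80 and 0.02.

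Whether the knockout acted differently in injured and uninjured kidneys was tested by the interaction, the VHL-KO/AKI minus AKI difference less the VHL-KO minus Control difference. The sex-linked transcripts divide the same arrays, so the interaction cannot tell injury and that difference apart. None of the 10 genes passed in limma, 5 had an unadjusted p under 0.05, and over all genes 2 of 19938 passed (0.01%) while 2387 had an unadjusted p under 0.05. Cdh5 had the largest value, -0.85 (95% interval -1.42 to -0.29, adjusted p = 0.209), followed by Flt1 at -0.67 (-1.11 to -0.23, adjusted p = 0.209). Pecam1, Tie1 and Emcn lay at -0.42, -0.40 and -0.39, with adjusted p of 0.332, 0.399 and 0.262. Vegfa, Kdr, Cd34, Tek and Eng lay between -0.28 and 0.15, and Vegfa, the lowest of them, at -0.07 without AKI 4 (adjusted p = 0.913). A knockout difference that held in uninjured and not in injured kidneys was therefore not shown for any of the 10 genes. Among the genes of the lists the lowest limma adjusted p was that of Esm1 (-1.01, adjusted p = 0.0689), then those of Robo4 (-0.71) and Adm (-1.63), at 0.0791 each. Those of Cd93 (-1.55, adjusted p = 0.0898), the platelet gene Ppbp (-2.39, adjusted p = 0.0939) and Car9 (2.35, adjusted p = 0.0957) were under 0.1 as well. This test turned on AKI 4. Without it 293 genes passed higher (1.47%) and 327 lower (1.64%), still with none of the 10 genes among them, and with Cdh5 at -0.72 (adjusted p = 0.0803). Of the 26 surface and junction genes 6 were then called lower, among them Cd93 (-1.40, adjusted p = 0.0186) and Robo4 (-0.67, adjusted p = 0.0228), and Esm1 (-0.96, adjusted p = 0.0172), Adm (-1.50, adjusted p = 0.0206) and Car9 (2.48, adjusted p = 0.0255) passed too.

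Within groups the members did not vary as 1 block. After subtraction of group means, Tek and Eng, receptors of separate pathways, had a correlation of 0.92 over the 16 arrays (0.82 over the 15 without AKI 4). Vegfa went with Cdh5 (0.78, or 0.61 without AKI 4), and Tek ran against Cdh5 (-0.79, or -0.64). Vegfa and Tek had -0.68 with AKI 4 and -0.20 without it, so that relation rested on this array. The genes most like Vegfa in level over the 16 arrays were Sh3bp5 and Pdha1 (Pearson correlation 0.92 each), then Alkbh5, Ovol1 and Nadk2 (0.89 each). Those most like Kdr were Meis2 and Wwc2 (0.97 each), Dzank1 and Arhgef7 (0.96 each) and Itgb5 (0.95). With group means subtracted, Mtfr2 (0.95), Pdha1 and Cox7a1 (0.94 each) were nearest to Vegfa, or 0.88, 0.86 and 0.82 without AKI 4, and Kidins220 (0.88), Tmem245 (0.87) and Lrp2 (0.86) were nearest to Kdr. The arrays share their groups and their labelling, and these correlations are descriptions chosen as the highest among all genes.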

How the data were processed

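Kidney RNA of 16 mice was measured on single-colour whole-transcript arrays. The deposited table holds log2 probe set levels (3.34 to 14.71). Partek 6.4 and RMA, which corrects background and summarises probes, are named in the submitters' processing notes, with order and settings not given in the sources used here. Of 35556 rows, 21789 carried 1 gene symbol, and the row with the highest mean stood for each gene, which left 19938 genes. Each of the 10 members had 1 row. Array medians lay between 5.92 and 6.03 and 0 pairs of arrays were identical. Groups came from the titles, which call the samples biological replicates.

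All 4 groups entered a single limma 3.58.1 fit (R 4.3.3) with 1 mean per group, 12 residual and 2.83 prior degrees of freedom. Tests were 2-sided, and a gene was called where its p, adjusted by Benjamini-Hochberg over all 19938 genes, was under 0.05. Errors are SDs of groups or standard errors of the fit, and the number of arrays limits the precision. The test was also tested on simulated data.

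Members and lists were chosen with earlier results of these data known. From each list the text names up to 4 called genes with the largest difference. Where none was called, it names at most the 2 genes of smallest p, or gives the list by its median only. Lists of other cell types are given by counts and levels. The 19 lists hold 216 genes beside the members, 202 of them measured, and some genes are in more than 1 list. Alternatives changed the rows tested, the dim filter, the scaling, the variance model, the samples and the covariates, as described in the closing part.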

Additional observations from a re-analysis of the deposited data

How the results depend on the processing

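The firmest calls were those on Kdr, Flt1 and Cd34 in AKI against Control and on Kdr, Tie1 and Cd34 in VHL-KO/AKI against VHL-KO, each made under 27 of 28 alternatives; Cd34 in VHL-KO against Control was called under 15. In VHL-KO against Control, 1 member was called higher. That count was 0 with all 35556 rows tested, with arrays centred, with quantile or cyclic loess scaling, with a sex-linked covariate (Xist minus the Y-linked mean), and with Control 3 and AKI 4 both left out; it was 4 with the groups compared alone (Tie1 among them at an adjusted p that rounds to 0.05), 7 with array weights, and 0 to 4 with 1 array left out. In AKI against Control, 1 member was called higher (2 with array weights, 0 with the covariate, 1 to 2 with 1 array left out) and 4 lower (3 with all rows tested, where Eng had an adjusted p of 0.057, 2 with groups alone, 0 with the covariate, 2 to 5 with 1 array left out). In VHL-KO/AKI against AKI, 1 was called higher (3 with array weights, 0 with groups alone, 2 with Control 3 and AKI 4 left out, 0 to 2 with 1 array left out). In VHL-KO/AKI against VHL-KO, 5 were called lower (4 with all rows tested or arrays centred, 7 with Control 3 and AKI 4 left out, 8 with array weights, 8 with groups alone, 0 with the covariate, 3 to 7 with 1 array left out). In the interaction, array weights called 3 (Cdh5, Flt1 and Pecam1) where 0 were called. All-gene counts were not taken with array weights or with the groups compared alone, so those gains cannot be set beside a share of all genes. The covariate is nearly the same as injury, so it widens the error of each injury comparison.

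Differences near 0 changed sign. Pecam1 in AKI against Control was 0 with quantile scaling and -0.01 with cyclic loess, with the replicate block and with Control 3 and AKI 4 left out, and ran from -0.05 to 0.15 with 1 array left out. The interaction of Tek was -0.03 with array weights and -0.06 with both arrays left out (-0.10 to 0.32 with 1 left out), and that of Eng was -0.01 with array weights (-0.05 to 0.15). With 1 array left out, Emcn in AKI against Control ran from -0.06 to 0.01, and Flt1 ran from -0.12 to 0.04 in VHL-KO/AKI against AKI and from -0.13 to 0.05 in VHL-KO/AKI against VHL-KO. With the covariate, Vegfa and Emcn in AKI against Control were 0.28 and 0.20, and in VHL-KO/AKI against VHL-KO Vegfa was 0.10, Flt1 0.36, Pecam1 0.02 and Cdh5 0.34. Beyond the arrays named in the report, Tie1 in VHL-KO against Control passed without AKI 1 (adjusted p = 0.049) and Emcn without VHL-KO 2 (0.0273).

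Replicate numbers are shared between groups, but same-numbered arrays did not deviate together (mean correlation -0.03 over 20 pairs, from -0.38 to 0.20), so they do not pair the mice. The replicate block lost 1 call, that on Eng in AKI against Control (-0.31, adjusted p = 0.122). Over all genes, VHL-KO against Control called 95 higher and 10 lower, against 54 and 10 with arrays centred and 60 and 10 with cyclic loess. VHL-KO/AKI against VHL-KO called 929 higher and 1776 lower, but 1467 and 1265 with arrays centred, 1177 and 1354 with quantile scaling and 1177 and 1416 with cyclic loess. The cause of these shifts was not tested. The values of list genes without AKI 4 were added after the data were seen.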
